A study of Rattus norvegicus with 6 samples.

Results

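The transcription factors that carry the circadian clock's signal to other genes were examined in maternal rat thyroid, together with the clock-driven deubiquitinase Usp2. The 9 genes were Dbp, Tef, Hlf, Nfil3, Bhlhe40, Bhlhe41, Ciart, Rora and Usp2, out of 15388 genes in the count tables, and all 9 were measured. They were chosen by their role in the clock from a comparison whose results were already known, so their differences between the groups are given as a description, without p-values. Thyroids came from adult Sprague-Dawley rats that were not pregnant (NP, 3 samples) or that were on Day 18 of pregnancy (late pregnancy, LP, 3 samples), with the morning of the vaginal plug taken as the start of the count of days. No other treatment and no genetic change was named for either group. Age in weeks, the hour of collection, the light cycle and the oestrous stage of the NP rats were not given in the sources used here. Clock genes cycle over the day, so an effect of pregnancy and an effect of the hour at which each group was collected cannot be told apart.

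In most cells, a loop of activators (Arntl with Clock or Npas2) and repressors (the Per and Cry proteins) turns over about once a day. The activators bind E-boxes and switch on the output genes, which pass the rhythm on. Dbp, Tef and Hlf are proline- and acidic amino acid-rich (PAR) bZIP activators that bind a D-box, and Nfil3 is a repressor of the same site. Bhlhe40 and Bhlhe41 (DEC1 and DEC2) and Ciart repress E-box activity, and Rora activates genes through ROR elements, a site that the Nr1d1 and Nr1d2 repressors share.

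Each library held 2752144 to 3449857 reads assigned to genes. By these totals alone, 3 reads stood for 0.8696 to 1.09 CPM, a gene's reads scaled to the size of its library. The CPM levels given below use library sizes adjusted by TMM factors, so they differ slightly from this scale. Between replicates 2 and 3 of each group, the counts differed within sampling noise (chi-square per degree of freedom 1.016 in NP and 0.9946 in LP), whereas replicate 1 differed from them by 3.699 to 4.112. The pair was taken as a single sample for each mean ± SD, which leaves n = 2 a group. Where p-values are printed, they come from an edgeR fit to all 6 libraries, which counts replicates 2 and 3 as separate samples. The SE of each log2 fold change was worked back from the test statistic of such a fit, so it counts them as separate too. These p-values and SEs measure the spread between these libraries, which may be technical. With replicates 2 and 3 summed to 1 sample, the edgeR adjusted p of Per2 was 1.87e-06 in place of 3.73e-09. That of Nono was 0.0166 in place of 0.00136. All 11 follicular cell genes were measured, as the tissue label calls for. Their summed level was 232600 to 251100 CPM in NP and 242800 to 259400 CPM in LP. Tg made up most of this sum, which therefore does not show the other genes. In the test described below, 2 of the 11 passed upward and 4 downward, beside 15.3% and 11.7% of all genes tested. Slc5a5 (log2 fold change −0.94) and Tshr (−0.68) were lower, and Duox2 (0.29) and Nkx2-1 (0.28) higher. Skeletal muscle genes, of which 20 of 26 listed were in the count tables, stood apart. Their sum was 37.65 to 85.67 CPM in NP and 6433 to 6795 CPM in LP. Of 18 tested, 17 were up, and Myh1 and Mylpf were at 0 in every NP library. The exception was Acta1 (log2 fold change 0.11), at 0 in replicate 1 of both groups. With 54.57 and 47.45 CPM in NP replicates 2 and 3, it made up most of the sum there. The part of these muscle transcripts in the differences described here was not tested. In bulk tissue, fewer cells of a type and less RNA per cell cannot be told apart.

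Of the 8 clock output genes with enough reads for the test across all genes, 2 passed it upward (Usp2 and Bhlhe41) and 2 downward (Dbp and Tef), at an adjusted p-value below 0.05 by the quasi-likelihood test of edgeR (Benjamini-Hochberg correction). Over all 11738 genes tested, 15.3% passed upward and 11.7% downward. Upward calls were 56.6% of all calls, and 40.5% when libraries were scaled by their totals alone, which changed no call among the output genes. The other 4 (Hlf, Nfil3, Bhlhe40 and Rora) did not pass, and Ciart had too few reads to enter. Because the genes were chosen with this comparison known, nothing is read from these counts. The median log2 fold change of the 8 genes was 0.42, between Hlf (0.31) and Rora (0.54), neither of which passed. Over all genes tested it was −0.01, and nothing is read from this difference either.

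**Figure D1:**
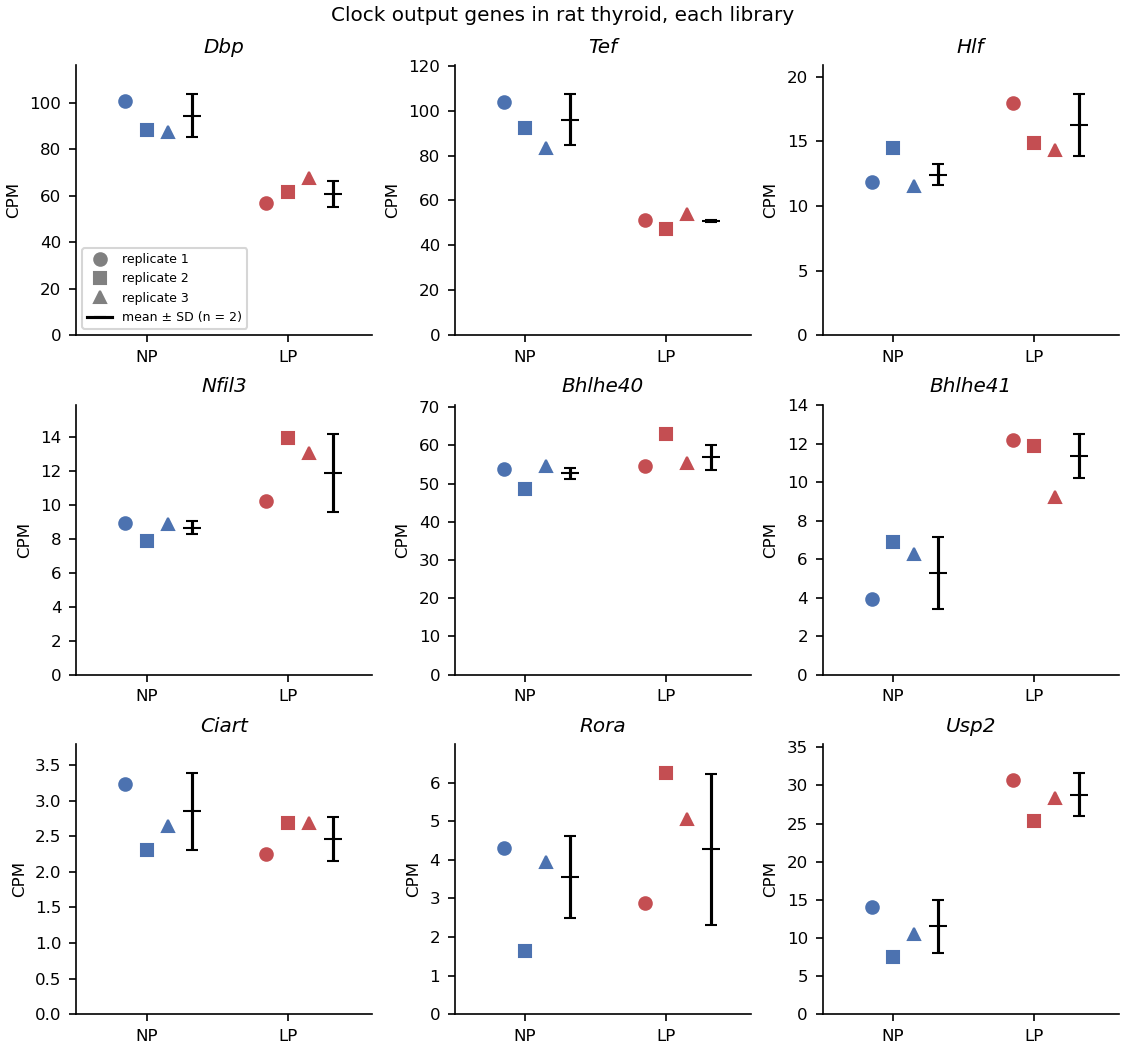
Level in CPM (scaled by TMM factors, each axis starting at 0) of the 9 clock output genes in each NP and LP library, with the mean ± SD beside each group, where replicates 2 and 3 count as 1 sample (n = 2). Dbp and Tef lie lower in every LP library than in any NP library, Nfil3, Bhlhe41 and Usp2 lie higher, and the groups overlap for Hlf, Bhlhe40, Ciart and Rora.

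Among the PAR bZIP activators, Dbp and Tef were lower in LP, and Hlf was not. Dbp, the activator with a large daily rhythm in many tissues, was counted with 282, 269 and 266 reads in the NP libraries and 177, 207 and 227 reads in the LP libraries. Its level went from 94.6 CPM ± 9.25 to 60.7 CPM ± 5.56 (SD, n = 2 each). Every LP library was below every NP library, and the log2 fold change was −0.57 (SE 0.081), or 1.485-fold lower. Tef, which was first known as an activator in the embryonic pituitary's thyrotrophs, had 290, 281 and 253 reads in NP and 160, 159 and 181 reads in LP. Its level went from 95.9 CPM ± 11.4 to 51.0 CPM ± 0.477 (SD, n = 2 each), with no overlap of the groups. Tef had the lowest log2 fold change of the 8 tested genes, −0.87 (SE 0.087), or 1.829-fold lower. Hlf, the third PAR bZIP activator, had 33, 44 and 35 reads in NP and 56, 50 and 48 reads in LP. The Hlf groups did not overlap in reads but did overlap in CPM, at 12.4 CPM ± 0.824 in NP and 16.3 CPM ± 2.38 in LP (SD, n = 2 each), with a log2 fold change of 0.31 (SE 0.175). A noncoding RNA of the RefSeq annotation overlaps the Hlf gene, and whether reads were assigned by strand is not given in the sources used here.

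Promoter sequences were taken from RefSeq (assembly GRCr8) as the 250 bases before to 50 bases after a gene's start, and 8 of the 9 genes had one. They were searched on both strands for the E-box CACGTG, for the D-box TTATGTAA or TTACGTAA, and for the ROR element core TAGGTCA or TGGGTCA. These motifs lie in 6.42%, 1.01% and 6.6% of the 33469 promoters, respectively. An E-box was found in 4 of the 8 promoters (Tef, Bhlhe40, Bhlhe41 and Ciart), and neither of the other motifs in any. The E-box promoters belong to genes that were lower (Tef), higher (Bhlhe41), not called (Bhlhe40) and not tested (Ciart), so the motif did not go with 1 direction. The stretches around the E-boxes are printed because this is the site that the loop's activators bind, with the motif in capitals. They stand at chr7:115206607-115206656 (plus strand) for Tef, chr4:143174208-143174257 (plus strand) for Bhlhe40, chr4:180569376-180569425 (minus strand) for Bhlhe41 and chr2:186112240-186112361 (minus strand) for Ciart, each written 5′ to 3′ on the gene's strand.
Tef: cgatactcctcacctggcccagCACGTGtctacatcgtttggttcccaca
Bhlhe40: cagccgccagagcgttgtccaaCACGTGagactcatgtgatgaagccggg
Bhlhe41: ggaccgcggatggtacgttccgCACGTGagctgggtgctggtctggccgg
Ciart: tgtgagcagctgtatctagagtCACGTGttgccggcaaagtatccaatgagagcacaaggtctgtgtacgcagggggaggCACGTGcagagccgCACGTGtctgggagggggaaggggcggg
The E-box begins 198 bases before the start in Tef, 220 in Bhlhe40 and 48 in Bhlhe41. Ciart holds 3, which begin 93, 35 and 21 bases before its start. A match is a description of the letters, and does not show that a factor binds there. A missing match does not show that a gene lacks the site, since other stretches and other spellings were not searched.

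Nfil3, the repressor that competes with the PAR bZIP activators, went in the opposite direction to Dbp and Tef in these libraries, without passing the test. It had 25, 24 and 27 reads in NP and 32, 47 and 44 reads in LP, or 8.68 CPM ± 0.404 and 11.9 CPM ± 2.33 (SD, n = 2 each). Every LP library was above every NP library. The log2 fold change was 0.54 (SE 0.202), but it differed between the libraries, at 0.19 for replicate 1 of each group and 0.69 for replicates 2 and 3. In a fit with replicate number as block, the log2 fold change was again 0.54 and Nfil3 passed the threshold, and without LP replicate 1 it was 0.65 and passed as well. With replicates 2 and 3 summed to 1 sample, Nfil3 did not pass, with the block (0.54) or without it (0.51). Nor did it pass with DESeq2 (0.54), and it did not pass in 12 of 15 alternative fits.

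The balance of activators over Nfil3 was also taken within each library, as the ratio of their reads, which needs no scaling between libraries. Reads of Dbp per read of Nfil3 were 11.3, 11.2 and 9.85 in NP and 5.53, 4.4 and 5.16 in LP, with means of 10.9 ± 0.53 and 5.16 ± 0.53 (SD, n = 2 each). For Tef they were 11.6, 11.7 and 9.37 in NP and 5.0, 3.38 and 4.11 in LP, with means of 11.1 ± 0.75 and 4.37 ± 0.885. Both ratios were lower in every LP library than in any NP library. This follows from the single genes, since Dbp and Tef were lower and Nfil3 higher in every LP library, and is no separate result. Reads of Hlf per read of Nfil3 overlapped between the groups, at 1.44 ± 0.173 in NP and 1.41 ± 0.476 in LP. These pairs were chosen after their values were seen, and the ratios compare groups, not the levels of one gene with another, since longer transcripts give more reads.

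Bhlhe40 and Bhlhe41, the DEC repressors, form a pair of related proteins that act on the same E-boxes, and Bhlhe41 was the one that was higher in LP. It had 11, 21 and 19 reads in NP and 38, 40 and 31 reads in LP, or 5.26 CPM ± 1.87 and 11.4 CPM ± 1.14 (SD, n = 2 each). The groups did not overlap, and the log2 fold change was 0.94 (SE 0.244), or 1.92-fold. Its size rested partly on replicate 1, where the log2 ratio was 1.63, compared with 0.68 in replicates 2 and 3. Without replicate 1 of both groups, Bhlhe41 no longer passed the threshold (log2 fold change 0.68), nor did it with DESeq2 (0.95). Bhlhe40 had 150, 148 and 166 reads in NP and 170, 212 and 186 reads in LP, or 52.7 CPM ± 1.5 and 56.9 CPM ± 3.36 (SD, n = 2 each). Its groups overlapped in CPM, with a log2 fold change of 0.14 (SE 0.087). Reads of Bhlhe41 per read of Bhlhe40 were 0.0733, 0.142 and 0.114 in NP and 0.224, 0.189 and 0.167 in LP, so that the LP ratio was above the NP ratio in every library, by 1.99 times on average.

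Ciart, a repressor that is recruited to the Arntl-Clock complex, was near the limit of what this depth can show. It had 9, 7 and 8 reads in NP and 7, 9 and 9 reads in LP, or 2.85 CPM ± 0.537 and 2.46 CPM ± 0.308 (SD, n = 2 each). The groups overlapped, and a difference was not detectable at this depth, with a log2 fold change of −0.10 (SE 0.384) in a fit without the filter on low counts. Rora, a nuclear receptor that activates Arntl through ROR elements, had 12, 5 and 12 reads in NP and 9, 21 and 17 reads in LP. The Rora groups overlapped at 3.55 CPM ± 1.06 and 4.27 CPM ± 1.96 (SD, n = 2 each), with a log2 fold change of 0.54 (SE 0.379). Its direction turned between libraries, with log2 ratios of −0.58 in replicate 1 and 1.02 in replicates 2 and 3, and 2 noncoding RNAs of the RefSeq annotation overlap the gene.

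Usp2, a deubiquitinating enzyme whose targets include clock proteins such as Per1 and Cry1, had the highest log2 fold change of the 9 genes. It had 39, 23 and 32 reads in NP and 96, 85 and 95 reads in LP, or 11.5 CPM ± 3.49 and 28.8 CPM ± 2.81 (SD, n = 2 each). Every LP library was above every NP library. The log2 fold change was 1.4 (SE 0.18), or 2.64-fold, and lay between 1.14 and 1.57 in the separate pairs of libraries. Usp2 was the only clock output gene that also passed a fold change above 2, which 4.9% of all genes tested passed upward and 0.537% downward. Usp2 and the sum of the muscle genes given above were both higher in LP, as were Bhlhe41 and 15.3% of all genes tested. The part of the muscle genes in the Usp2 value was not tested. Leaving the muscle genes out of the scaling moved the median log2 fold change by −0.004 and changed no call among the clock output genes. That setting leaves each gene's reads unchanged, so it cannot show what part of them came from muscle.

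**Figure D2:**
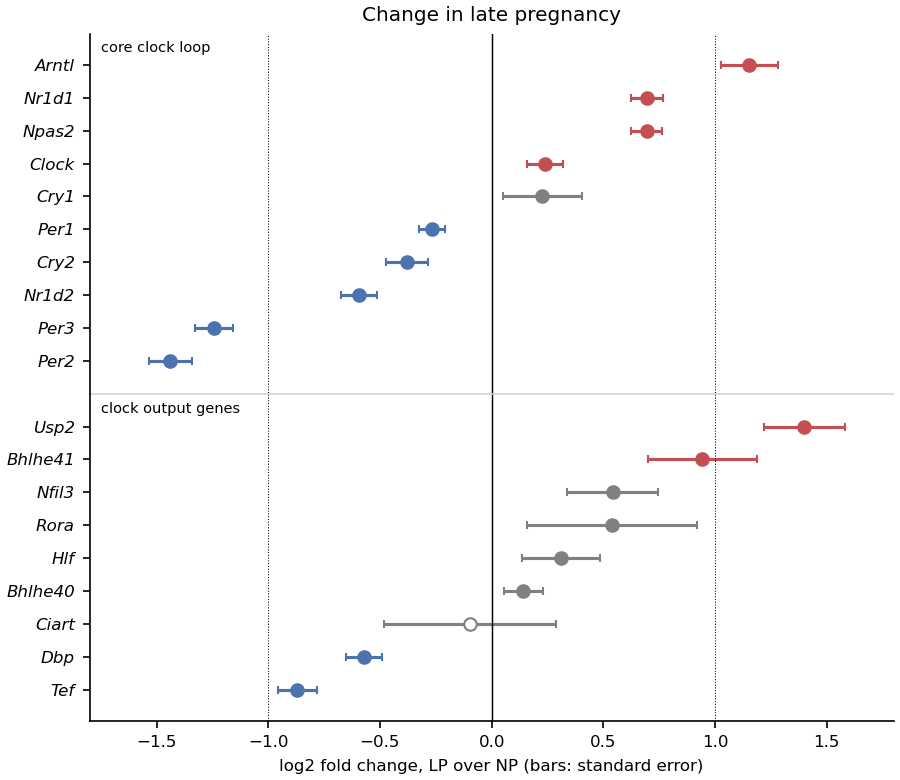
Log2 fold change of LP over NP (x axis, bars are the standard error of the fit) of the 9 clock output genes and of 10 tested core loop genes. Red points passed upward, blue points downward and grey points not at an adjusted p below 0.05, the open point is Ciart from a fit without the filter on low counts, and dotted lines mark a fold change of 2. The output genes run from Tef at −0.87 to Usp2 at 1.4, and the core loop from Per2 at −1.44 to Arntl at 1.15.

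Counted by overlap alone, 3 of the 8 tested output genes (Nfil3, Bhlhe41 and Usp2) had every LP library above every NP library, which 21.2% of all genes tested had. In 2 of the 8 (Dbp and Tef) every LP library was below, which 18.9% of all genes tested had. The 2 separate estimates of each difference, from replicate 1 alone and from replicates 2 and 3, had the same sign for 7 of the 9 genes. The exceptions were Ciart (−0.52 and 0.12) and Rora. Dbp was lower in both, by log2 ratios of −0.83 and −0.45, as was Tef, by −1.02 and −0.80.

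**Figure D3:**
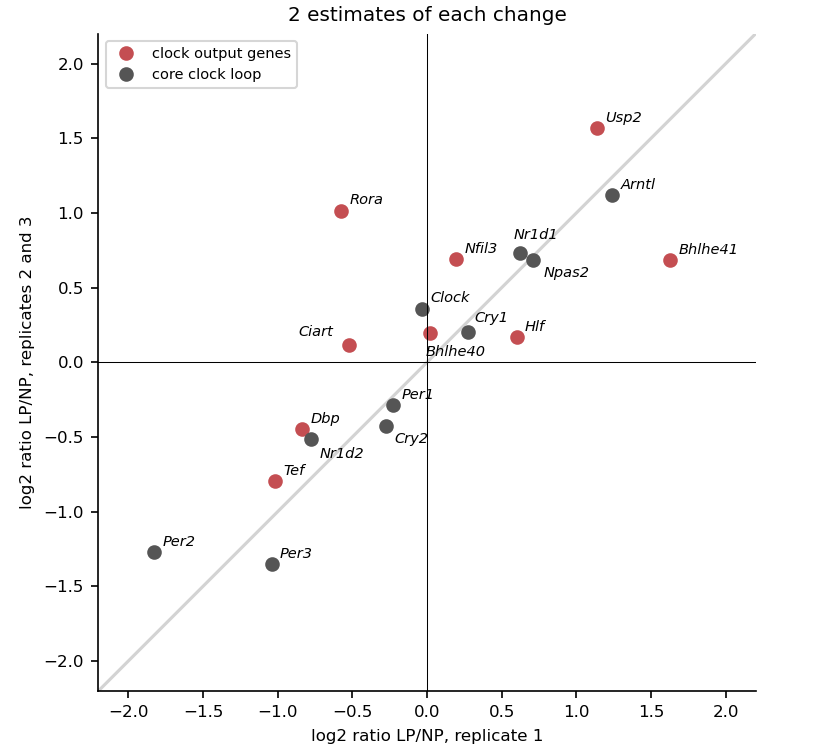
Log2 ratio of LP to NP CPM in replicate 1 (x axis) and in replicates 2 and 3 (y axis) for the 9 clock output genes (red) and 10 tested core loop genes (dark grey), with the line of equal ratios. Usp2, Dbp and Tef lie closer to that line than Bhlhe41, at 1.63 and 0.68, and Rora, at −0.58 and 1.02.

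The core loop drives these output genes, and several of them feed back on it. Of its 13 listed genes, 11 were tested, of which 4 rose, 5 fell and 2 (Cry1 among them) did not pass, beside 15.3% up and 11.7% down over all genes tested, and the median log2 fold change was −0.035. With replicates 2 and 3 summed to 1 sample, 8 of the 9 still passed. Past a fold change of 2, 1 rose (Arntl) and 2 fell (Per2 and Per3), beside 4.9% and 0.537% of all genes tested. Adjusted p-values of this list come from the same edgeR fit, with Benjamini-Hochberg correction over all genes tested.

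On the activating side, Arntl, the partner of Clock and Npas2, rose from 39, 43 and 49 reads in NP to 103, 115 and 106 reads in LP (log2 fold change 1.15, SE 0.129, edgeR adjusted p = 2.1e-06). Npas2, which can replace Clock, rose from 138, 155 and 157 reads to 253, 278 and 277 reads (log2 fold change 0.69, SE 0.069, edgeR adjusted p = 5.26e-07). On the repressing side, Per2 had 270, 273 and 255 reads in NP and 85, 125 and 117 reads in LP (log2 fold change −1.44, SE 0.098, edgeR adjusted p = 3.73e-09). Per3, a less potent repressor of the loop, had 228, 249 and 263 reads in NP and 124, 111 and 111 reads in LP (log2 fold change −1.25, SE 0.085, edgeR adjusted p = 3.99e-09).

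Nr1d1 and Nr1d2 (REV-ERBα and REV-ERBβ) repress Arntl and Nfil3 from the site that Rora activates, and the pair went in opposite directions. Nr1d1 had 136, 150 and 140 reads in NP and 234, 267 and 265 reads in LP (log2 fold change 0.70, SE 0.073, edgeR adjusted p = 1.05e-06). Nr1d2 had 233, 227 and 245 reads in NP and 152, 193 and 173 reads in LP (log2 fold change −0.60, SE 0.08, edgeR adjusted p = 1.8e-05). Reads of Nr1d1 per read of Nr1d2 were 0.584, 0.661 and 0.571 in NP and 1.54, 1.38 and 1.53 in LP. The lack of overlap follows from the single genes, since both separated the groups, in opposite directions. Nr1d1 overlaps Thra on the opposite strand in the RefSeq annotation. Without strand information, reads from the stretch they share cannot be told apart, so the value of Nr1d1 is uncertain. Noncoding RNAs of the same annotation overlap Per2, Npas2, Clock and Cry2, with the same limit on their reads. The remaining called genes, named after their values were seen, were Clock (log2 fold change 0.24, groups overlapping), Per1 (−0.27) and Cry2 (−0.38). Clock did not pass with replicates 2 and 3 summed or scaled by library totals alone, its log2 ratio in replicate 1 was −0.03, and neither Clock nor Cry2 passed with DESeq2.

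In the same RefSeq promoters, the core loop had 1 gene of 11 with an E-box (Nr1d1), 1 with a D-box (Per2) and 1 with a ROR element core (Arntl). Sites outside these short stretches or with other letters would be missed here too. The D-box of Per2 and the ROR element of Arntl are printed because they are the sites of Dbp, Tef, Hlf and Nfil3, and of Rora, respectively. They stand at chr9:99497156-99497207 (minus strand) and chr1:176766290-176766340 (plus strand), with the motif in capitals.
Per2: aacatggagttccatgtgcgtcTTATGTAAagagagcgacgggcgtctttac
Arntl: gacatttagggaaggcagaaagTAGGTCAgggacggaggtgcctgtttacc
The D-box begins 192 bases before the start of Per2, and the ROR element core 16 bases before the start of Arntl.

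**Figure D4:**
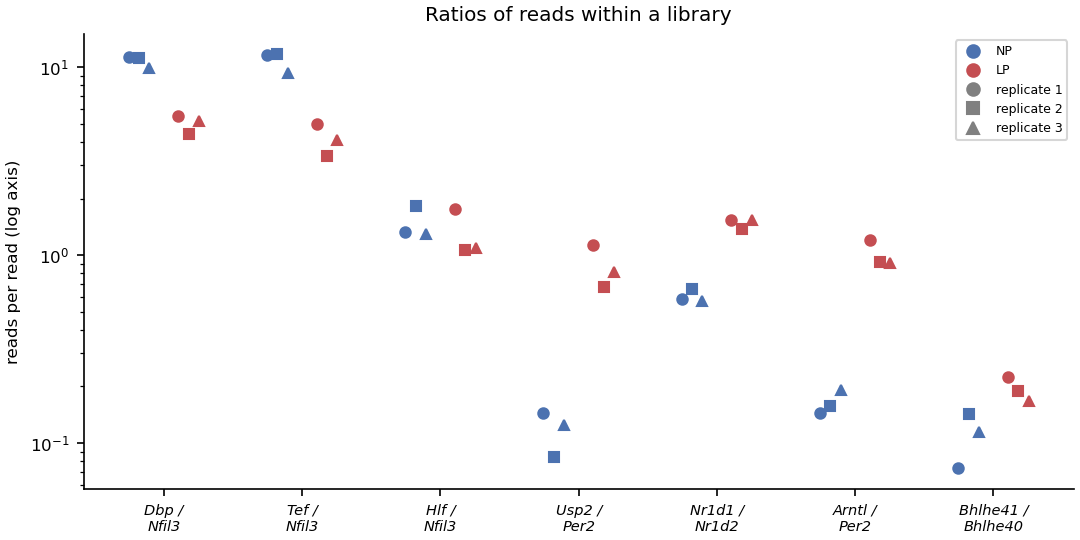
Ratio of the reads of a gene pair within each library (y axis, log scale), for NP (blue) and LP (red) libraries and replicates 1 to 3 (marker shape). Dbp and Tef per read of Nfil3 are lower in every LP library, Hlf per read of Nfil3 overlaps, and the other 4 ratios are higher in every LP library. Where both genes of a pair separate the groups in opposite directions, their ratio must separate them too.

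Usp2 and Per2, both targets of the same activators, had the highest and the lowest log2 fold change of the tested genes of both lists. Reads of Usp2 per read of Per2 were 0.144, 0.0842 and 0.125 in NP and 1.13, 0.68 and 0.812 in LP, a mean of 0.125 ± 0.028 and 0.938 ± 0.271 (SD, n = 2 each), or 7.52 times higher. Arntl, which peaks away from Per2 in many tissues, gave 0.144, 0.158 and 0.192 reads per read of Per2 in NP and 1.21, 0.92 and 0.906 in LP, or 6.65 times higher. Neither ratio overlapped between the groups, which follows from the single genes. Usp2 and Arntl were higher, and Per2 lower, in every LP library than in any NP library. The ratios restate those differences and are no separate result.

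Genes known in other tissues as targets of the PAR bZIP factors were also counted. Of 6 listed genes, 5 were tested, and the symbol Cyp7a1 was absent from the count tables. Of the 5, 1 rose, 1 fell and 3 (Pdxk, Alas1 and Nr1i3) did not pass. These are too few to set against the 15.3% up and 11.7% down of all genes tested. Their median log2 fold change was −0.18. Por, which supplies electrons to cytochrome P450 enzymes, fell from 1399, 1467 and 1505 reads in NP to 1229, 1227 and 1263 reads in LP (log2 fold change −0.38, SE 0.05, edgeR adjusted p = 1.32e-05). Ppara, a receptor that switches on fatty acid oxidation, rose from 6, 3 and 3 reads to 13, 18 and 12 reads (log2 fold change 1.66, SE 0.41, edgeR adjusted p = 0.0056), and did not pass with DESeq2. Ppara is abundant in oxidative tissues such as muscle, whose genes were higher in LP, and their part in its value was not tested.

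A further list held kinases, ubiquitin ligases and cofactors that act on clock proteins. Of 15 listed genes, 14 were tested, and the symbol Fbxl21 was absent from the count tables. Of the 14, 2 rose, 2 fell and 10 did not pass, shares near those of all genes tested (15.3% up and 11.7% down). Their median log2 fold change was 0.054. Prkaa2, a catalytic subunit of AMP-activated kinase that is abundant in skeletal muscle, had 14, 17 and 16 reads in NP and 79, 74 and 72 reads in LP (log2 fold change 2.10, SE 0.187, edgeR adjusted p = 1.22e-07). The part of the muscle genes in it was not tested. Nono, a cofactor of the Per proteins, fell by 0.25 on the log2 scale (SE 0.052, edgeR adjusted p = 0.00136). Csnk2a1, a kinase subunit, and Timeless passed with log2 fold changes of 0.23 and −0.25 (edgeR adjusted p = 0.0231 and 0.0327), but not with replicates 2 and 3 summed or with DESeq2.

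Likeness to the highest and the lowest of the output genes was measured as Pearson's r of log2(CPM + 0.5) over the 6 libraries, among 7942 genes with a mean of at least 50 reads. Closest to Usp2 were Jup (r = 0.9982), Cish (r = 0.9982) and Fhod1 (r = 0.9979), with log2 fold changes of 0.29, 0.91 and 0.68. Jup is a junction protein, Cish is an inhibitor of cytokine signalling that prolactin and growth hormone induce, and Fhod1 is an actin-binding formin. Closest to Tef were Spcs3 (r = 0.9984), Ager (r = 0.9979) and Lpin2 (r = 0.997), with log2 fold changes of −0.67, −0.81 and −0.51. Spcs3 belongs to the signal peptidase, Ager is the receptor for glycated proteins, and Lpin2 is a phosphatidate phosphatase. In all, 307 genes had an r above 0.95 with Usp2 and 386 with Tef. Any gene that differs between the groups shares most of such a pattern, and the 6 points share libraries and hold 4 separate samples, so these values are a description only.

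The other marker lists moved less than the muscle genes. From NP to LP, the summed level was 13750 to 14710 CPM and 12160 to 12900 CPM for C cells (led by Calca and Chga), and 4474 to 4848 CPM and 3730 to 4045 CPM for the parathyroid (led by Pth and Casr). Endothelial genes (led by Kdr and Cdh5) were at 365.1 to 381.3 CPM and 310.1 to 325.6 CPM. Of 5 tested, 3 were called lower, beside 11.7% of all genes tested, and Cdh5, at a log2 fold change of 0.01, was not. Of 4 C cell genes tested 1 was called higher and 1 lower, and of 3 parathyroid genes 1 was lower. Adipocyte genes (led by Cfd and Adipoq) were at 108.7 to 131.6 CPM and 113.4 to 141.0 CPM, and leukocyte genes (led by C1qa and Lyz2) at 60.63 to 68.7 CPM and 67.85 to 85.49 CPM. Airway genes (led by Scgb3a1 and Scgb1a1) were at 1.434 to 3.954 CPM and 12.5 to 15.39 CPM, with 2 of 2 tested genes called higher, beside 15.3% of all genes tested. The part of any of these cells in the clock output genes was not tested.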

How the data were processed

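Thyroid RNA from 3 NP and 3 LP samples was sequenced by the authors on an Illumina HiSeq instrument after TruSeq RNA preparation. Per the methods and the labels, the authors mapped the reads to rat genome rn5 with TopHat 1.4.0 and counted them per Ensembl release 81 gene model with HTSeq. The deposited values are raw counts, 1 table per sample, and the strand setting is not given in the sources used here. The clock genes and the other gene lists were chosen with earlier results of these data known.

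Counts were fitted with edgeR 4.0.16 in R 4.3.3 (quasi-likelihood test, TMM scaling, default expression filter, Benjamini-Hochberg adjustment over 11738 genes, called at an adjusted p below 0.05), on all 6 samples without a block. CPM values were scaled by the TMM factors. With 3 samples a group, of which 2 held near-identical counts, the precision is that of 2 values a group, and intervals of a low count are wide. DESeq2 1.42.0, other scalings and filters, leaving out samples and summing replicates 2 and 3 served as alternatives. Fits were tested on simulated data.

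All 9 clock output genes are named. Of the other lists, the rule named core loop genes past both criteria and the 3 next by adjusted p, up to 4 called modifiers and targets, the 3 genes most like the highest and the lowest output gene, and the 2 most abundant genes and those at 0 of each marker list, and some genes and 1 marker list are not reported here. Deviations of samples with the same replicate number from their group means correlated at 0.486, 0.218 and 0.185 across genes, but numbers 2 and 3 crossed gave 0.213 and 0.213, and 3 genes, none of them a clock gene, were at 0 in replicate 1 of both groups with at least 20 reads in every other library. The labels do not say what a number shares. Motifs were searched in RefSeq GRCr8 promoters, which is another assembly than that of the counts.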

Additional observations from a re-analysis of the deposited data

How the results depend on the processing

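Among the 8 fitted clock output genes, 119 of 124 values from alternative fits kept their direction and their side of the threshold, none reversed, and 6 genes never changed call. Nfil3 passed with the replicate block (0.54), without LP replicate 1 (0.65) and without replicate 1 of both groups (0.68). It did not pass in 12 of its 15 alternative fits. Among these were DESeq2 (0.54) and the fits with replicates 2 and 3 summed, with the block (0.54) or without it (0.51). Bhlhe41 no longer passed without replicate 1 of both groups (0.68, a setting chosen after seeing the data) or with DESeq2 (0.95). Leaving out 1 library at a time gave log2 fold changes of −0.64 to −0.50 for Dbp, −0.95 to −0.79 for Tef and 1.19 to 1.63 for Usp2. Over all genes, 3168 were called, 3784 with the replicate block, 2541 with replicates 2 and 3 summed and 1922 with DESeq2. Scaling by library totals alone moved the median by −0.072 and the share of calls that were up from 56.6% to 40.5%, without a change of call among the clock output genes. The modifiers called went from 4 to 2 with replicates 2 and 3 summed and with DESeq2, and numbered between 2 and 4 when 1 library was left out. The PAR bZIP targets called went from 2 to 1 with DESeq2, where Ppara was lost (adjusted p = 0.057), and to 1 with a mean of at least 50 reads, where 2 were tested. The replicate block changed no other call among the named genes. Clock, called at 0.24, was at −0.03 in replicate 1 of each group alone. The causes were not tested. Low counts limit Ciart and Rora most.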
